A study of Mus musculus with 2 samples.

Results

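The 10 genes Dclk1, Trpm5, Pou2f3, Lrmp, Il25, Alox5ap, Ltc4s, Hpgds, Gnat3 and Plcg2, of 31053 measured in mouse ileal crypt cells, were described across the 12 cell classes that the authors named. They were chosen by name as genes of tuft cell taste signalling and lipid mediator synthesis, and each symbol matched a gene of the deposited tables. Their unique molecular identifiers (UMIs, tags that count captured RNA molecules) were added up per class and library. In both libraries all 10 genes had their highest level in the class named TUFT, which held 161 and 143 of 5305 and 6257 listed cells. There was 1 group of mice, of genotype Atoh1CreER-T2;R26RTom and labelled WT, with 2 libraries (replicates 1 and 2), and no control group. The mice received 2 intraperitoneal doses of tamoxifen at 1 mg/mL, 24 h apart, and Tom+ crypt cells of the ileum were sorted 12 h after the second. The recombinase is driven by the Atoh1 promoter, so the sort takes cells in which that promoter had been active, and the tuft cells here are those that carried the label. The labels do not say whether the replicates came from separate animals, so the spread between them may be technical.

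The listed cells held 32656481 UMIs in replicate 1 and 27014983 in replicate 2. TUFT cells were shallower than the average, with medians of 3403 and 2317 UMIs per cell, against 5706 and 3503 over all listed cells. Their sums came to 608473 and 392983 UMIs. Of the cell barcodes, 12 were listed in both libraries, and 0 of these were TUFT.

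Tuft cells are rare chemosensory cells of the gut epithelium. In them, a signal at a surface receptor passes through a G protein, a phospholipase C and calcium release from internal stores to the cation channel Trpm5. Mouse intestinal tuft cells release the cytokine Il25 and lipid mediators made from arachidonic acid (eicosanoids), which act on immune cells in the response to parasites. The transcription factor Pou2f3 is required for tuft cells to form in mice, and the kinase Dclk1 is their usual marker.

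RefSeq promoters (GRCm38.p6, 250 bases before to 50 after a gene's start) were available for 6 of the 10 genes, Dclk1, Trpm5, Ltc4s, Hpgds, Gnat3 and Plcg2, with 2 starts for Dclk1. They were searched on both strands for the octamer ATGCAAAT, the motif read by the POU family to which Pou2f3 belongs. Of the 7 promoters, 1 held it, that of Hpgds, at base 77 of the window on its own strand. Of all 32851 promoters searched, 570 (1.74%) held it, and 3.15% held the looser form ATGCNAAT, which includes it and which again was found in 1 of the 7. The sequence TATAAA was in 0 of the 7 and in 13.6% of all promoters. These matches describe letters only. Hpgds and Plcg2 are shown because they had the largest share of their UMIs outside TUFT, and Trpm5 as a gene with few there. Capitals mark every CG pair and, in Hpgds, the octamer. The windows are chr6:65144681-65144980 on the minus strand for Hpgds, chr8:117498025-117498324 on the plus strand for Plcg2 and chr7:143094593-143094892 on the minus strand for Trpm5.
Hpgds: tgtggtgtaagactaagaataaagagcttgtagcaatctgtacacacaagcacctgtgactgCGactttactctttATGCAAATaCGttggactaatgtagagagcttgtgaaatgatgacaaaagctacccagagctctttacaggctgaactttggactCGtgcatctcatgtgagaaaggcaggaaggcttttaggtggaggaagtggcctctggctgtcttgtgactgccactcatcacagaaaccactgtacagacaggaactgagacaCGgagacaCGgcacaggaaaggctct
Plcg2: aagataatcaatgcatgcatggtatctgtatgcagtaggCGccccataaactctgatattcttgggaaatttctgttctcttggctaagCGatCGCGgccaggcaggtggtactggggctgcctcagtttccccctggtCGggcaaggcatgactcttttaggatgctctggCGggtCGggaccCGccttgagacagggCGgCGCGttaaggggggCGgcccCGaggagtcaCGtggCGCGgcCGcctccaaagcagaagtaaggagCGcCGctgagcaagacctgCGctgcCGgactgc
Trpm5: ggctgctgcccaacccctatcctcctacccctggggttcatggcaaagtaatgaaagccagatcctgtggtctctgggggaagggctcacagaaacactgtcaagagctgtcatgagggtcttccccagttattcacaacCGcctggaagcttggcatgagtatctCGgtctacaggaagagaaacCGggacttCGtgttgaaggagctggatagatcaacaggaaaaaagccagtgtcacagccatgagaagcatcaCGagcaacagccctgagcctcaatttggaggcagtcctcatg
The Plcg2 promoter had 21 CG pairs, more than 75.2% of all promoters, whose median was 7. The other 6 promoters had 4 to 6 each, Hpgds and Trpm5 both 5.

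The name TUFT was checked against 14 tuft cell markers that are not among the 10 genes, and all 14 were called higher in TUFT than in the mean of the other 11 classes. The test was edgeR's quasi-likelihood test on the 24 class sums with Benjamini-Hochberg adjustment over 10994 genes, of which 1403 (12.8%) were called higher in TUFT and 870 (7.91%) lower. The classes are the authors' classes of these same cells, so the calls are a description of the class and no independent evidence. The test averages fitted log2 levels over the other classes, while the means printed in the text are of CPM. Classes at or near 0 pull the fitted average down, so an adjusted p is not a test of the printed CPM means. Rgs13, a regulator of G protein signalling, had 1470 and 679 CPM (counts relative to the TMM-scaled total of each sum) in TUFT, against means of 1.39 and 1.54 CPM in the other classes. Avil, an actin-binding protein of the tuft cell apex, had 528 and 402 CPM in TUFT, against 2.02 and 2.82 CPM in the others. Cd24a was higher by less, with 1506 and 1110 CPM in TUFT, against 463 and 518 CPM, and PANETH exceeded TUFT for it. All markers listed for T cells, macrophages, mast cells and stroma or vessel had 0 UMIs in TUFT in both libraries. Of the B cell markers Cd79b had 3 and 5 UMIs and the rest 0, and of the markers of group 2 innate lymphoid cells Areg had 3 and 9 and the rest 0. Transcripts of secreted products listed as markers of other cell types were present. Defa24, a Paneth cell defensin, had a UMI in 100% of TUFT cells in both libraries, and Tff3 of goblet cells in 86.3% and 76.9%. Their source was not tested. Unscaled, the enterocyte marker Fabp1 had 69.0 and 198 CPM in TUFT, against 3.46 and 7.81 CPM in the others pooled. The other enterocyte markers were lower in TUFT. Of the stem markers Ascl2 had 42.7 and 40.7 CPM, against 5.37 and 8.68 CPM, and Lgr5 was also higher, while Olfm4 and Slc12a2 were lower. Scaling matters for the split of calls. With unscaled library sizes 3790 genes were called higher and 354 lower, 91.5% higher against 61.7% with TMM factors, and the median difference over all genes moved to 0.56, against 0.12 on the log2 scale.

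**Figure D1:**
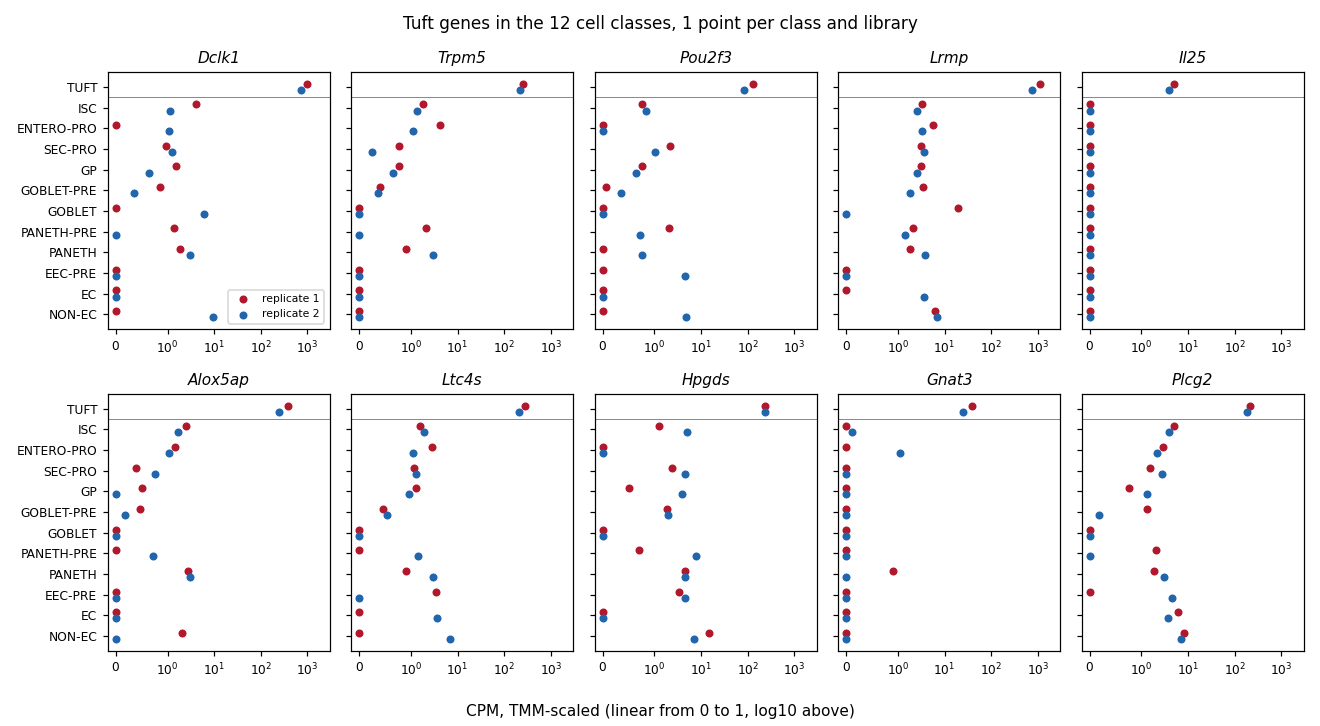
Level of each of the 10 genes in the 12 classes, in TMM-scaled CPM on an axis that is linear up to 1 and log10 above, with 1 point per class and library. In every panel both TUFT points, in the top row, lie above all 22 points of the other classes, which for Il25 are all at 0.

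For the regulator and the marker kinase, Pou2f3 (chr9:43123939-43210369, minus strand) had 102 and 43 UMIs in TUFT, against 21 and 21 in all other classes together. Its level in TUFT was 105 ± 31.5 CPM (SD, n = 2). Per UMI sequenced this was 256 and 139 times the level of the other classes pooled in the same library. Dclk1 (chr3:55242364-55539068, plus strand) had 793 and 376 UMIs in TUFT, against 44 and 30 elsewhere, and 856 ± 188 CPM in TUFT (SD, n = 2). Its TUFT level was 949 and 849 times that of the other classes, and 94.7% and 92.6% of its listed UMIs lay in TUFT. The TUFT sums stood far from all others for both genes: the highest value of another class and library was 4.68 CPM for Pou2f3 and 9.36 CPM for Dclk1, both in NON-EC of replicate 2, where they rest on 2 and 4 UMIs. Since a class's high level of these genes is part of what they were picked for, no test is given for it.

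The other transcription factors listed for tuft cells were tested as a group of 12, of which 8 were called higher in TUFT (background 12.8%) and 2 lower (7.91%), with a median log2 difference of 3.56 over the list and 0.12 over all genes tested. Hmx2 had 147 and 88.5 CPM in TUFT, against 0.276 and 0.0750 CPM in the other classes, and Hmx3, its neighbour in the homeobox family, 137 and 88.5 CPM in TUFT, against 0.162 and 0.156 CPM. Spib, an ETS factor, had 125 and 94.3 CPM in TUFT, against 0.111 and 0.282 CPM elsewhere. With DESeq2's Wald test 5 of the list were called higher, and Hmx2, Spib and Gfi1b were among those lost. Atoh1, whose promoter drove the label, had 24 and 10 UMIs in TUFT, 30.0 and 19.2 CPM, against 80.7 and 75.6 CPM in the others (edgeR adjusted p = 0.0431). That call was lost with DESeq2 size factors (0.0560), TMM over all genes (0.0753), no library term (0.0770) and unscaled library sizes (0.206). Gfi1, the other factor called lower, had 1 UMI in each TUFT sum. The relatives of the 10 genes in the doublecortin kinase, Trpm channel and POU families gave 1 of 5 tested called higher and 0 lower, Pou2f1, with 42.4 and 21.2 CPM in TUFT, against 19.9 and 17.7 CPM (edgeR adjusted p = 0.00403). This call was lost after thinning each cell to 2000 UMIs (0.134). The list's median difference was 0.07 on the log2 scale.

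Among the taste signalling genes, Gnat3 (gustducin, the taste G protein alpha subunit, chr5:17962549-18019834, plus strand) had 31 and 13 UMIs in TUFT, against 1 and 2 in the other classes. With so few outside, the ratios of 1633 and 440 have counting intervals of 272 to 66544 and 99.7 to 4019 (95%, exact). Its level in TUFT was 31.8 ± 9.68 CPM (SD, n = 2). Trpm5 (chr7:143069153-143094642, minus strand) had 207 and 115 UMIs in TUFT, against 27 and 23 elsewhere. It reached 240 ± 26.3 CPM in TUFT (SD, n = 2), 404 and 339 times the pooled level of the other classes. Lrmp, a protein of the endoplasmic reticulum membrane that in mouse taste cells is bound to an inositol trisphosphate receptor (chr6:145115653-145174934, plus strand), had 891 and 392 UMIs in TUFT, against 107 and 71 elsewhere. Its level in TUFT was 933 ± 253 CPM (SD, n = 2), 439 and 374 times the level of the others. Its highest value outside TUFT was 19.8 CPM in GOBLET of replicate 1, from 2 UMIs, and GOBLET of replicate 2 had 0. Plcg2, a phospholipase C that tyrosine kinases switch on (chr8:117498291-117635142, plus strand), had 175 and 95 UMIs in TUFT, against 63 and 65 elsewhere. Its level in TUFT was 201 ± 25.2 CPM (SD, n = 2), and its ratios of 146 and 99.0 were lower than those of the other 3. Of its listed UMIs 73.5% and 59.4% lay in TUFT.

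Of 13 further genes of the taste pathway that were tested, 8 were called higher in TUFT (background 12.8%) and 0 lower, with a median log2 difference of 1.88 against 0.12 over all genes. Gng13, the gamma subunit partnered with gustducin, had 367 and 502 CPM in TUFT, against 0.912 and 2.20 CPM in the others. Plcb2, the taste phospholipase C, had 255 and 169 CPM in TUFT, against 0.751 and 1.52 CPM. Among the inositol trisphosphate receptors Itpr2 had 357 and 364 CPM in TUFT, against 17.98 and 20.29 CPM, and was called higher. Itpr3, the receptor of taste buds, had 32.4 and 53.9 CPM in TUFT, against 42.5 and 54.1 CPM, and was not called (edgeR adjusted p = 0.960). The receptors for short-chain fatty acids and succinate, Ffar3 and Sucnr1, had 33 and 17 UMIs and 10 and 5 UMIs in TUFT. The taste receptor genes were at the limit of detection, with 5 and 2 TUFT UMIs for Tas1r3 and 0 for Tas1r1 and Tas1r2. The phospholipase C and calcium signalling relatives of Plcg2 gave 10 of 19 called higher and 1 lower, with a median log2 difference of 1.55. Bmx, a Tec family kinase, had 120 and 113 CPM in TUFT, against 0.270 and 0.216 CPM. Ptprc, the blood cell phosphatase CD45, had 22 and 11 UMIs in TUFT, in which the T cell, macrophage and mast cell markers were at 0, Cd79b of B cells had 3 and 5 UMIs and Areg 3 and 9. Plcb1 was called lower, with 3.74 and 9.62 CPM in TUFT, against 39.9 and 33.1 CPM in the others (edgeR adjusted p = 2.82e-05).

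The eicosanoid genes divide into a leukotriene branch and a prostaglandin branch. Alox5ap, the protein that presents arachidonic acid to 5-lipoxygenase (chr5:149264767-149288153, plus strand), had 312 and 126 UMIs in TUFT, against 26 and 26 elsewhere. Its level in TUFT was 316 ± 104 CPM (SD, n = 2), and it was 632 and 328 times that of the other classes. Ltc4s, the synthase of leukotriene C4 (chr11:50236461-50238616, minus strand), had 229 and 107 UMIs in TUFT, against 28 and 40 elsewhere, and 246 ± 56.6 CPM in TUFT (SD, n = 2). The ratios were 431 and 181. Hpgds, the prostaglandin D2 synthase of blood cells (chr6:65117293-65144908, minus strand), had 188 and 120 UMIs in TUFT, against 61 and 109 elsewhere. Its TUFT level of 233 ± 2.69 CPM (SD, n = 2) differed little between libraries, and its ratios to the other classes were 162 and 74.6. TUFT held 75.5% of its listed UMIs in replicate 1 and 52.4% in replicate 2.

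The rest of the eicosanoid list covers enzymes upstream of these 3, other end enzymes, receptors and breakdown. Of 18 genes tested, 6 were called higher (background 12.8%) and 2 lower (7.91%), with a median log2 difference of 0.33. Pla2g4a, the phospholipase that frees arachidonic acid, had 245 and 129 CPM in TUFT, against 12.2 and 13.3 CPM in the others. Alox5, the lipoxygenase that Alox5ap serves, had 72.4 and 61.6 CPM in TUFT, against 0.106 and 1.36 CPM. Ptgs1, the cyclooxygenase that supplies Hpgds, had 107 and 98.1 CPM in TUFT, against 0.390 and 0.144 CPM. The inducible cyclooxygenase Ptgs2 had 0 and 1 UMIs in TUFT, and the synthases Ptges and Ptgds had 0 in both libraries. Lta4h, which draws leukotriene A4 toward leukotriene B4, had 36.2 and 53.9 CPM in TUFT, against 41.7 and 46.9 CPM, and was not called (edgeR adjusted p = 0.763). Hpgd, which breaks prostaglandins down, had 24.96 and 32.70 CPM in TUFT, against 78.5 and 64.3 CPM, and was not called (edgeR adjusted p = 0.613). The genes called lower were Mgst2, a glutathione transferase with leukotriene C4 synthase activity, with 71.1 and 44.2 CPM in TUFT, against 160 and 115 CPM, and Ptger4, a prostaglandin E2 receptor, with 7 and 3 UMIs in TUFT. The Mgst2 call was lost with unscaled library sizes (0.0651), and the Ptger4 call after thinning (0.242).

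Il25, the cytokine through which tuft cells activate group 2 innate lymphoid cells (chr14:54932695-54935837, plus strand), had 4 and 2 UMIs in TUFT and 0 in all other classes of both libraries. With the other classes pooled per library and set to a floor of 3 counts, the ratios were 70.2 and 45.2. These leave out the counting error of the 4 and 2 TUFT UMIs, so they are no lower bounds. In replicate 2 the TUFT level of 3.85 CPM lay below that sum's own floor of 5.77 CPM. The Il25 level in TUFT was 4.42 ± 0.810 CPM (SD, n = 2), and each UMI lay in a different cell. It did not pass the filter on low counts and was not tested, so 9 of the 10 genes were in the fit. Of 10 further genes of the type 2 cytokine circuit that were tested, 6 were called higher in TUFT (background 12.8%) and 0 lower, with a median log2 difference of 1.07. Chat, the acetylcholine synthase, had 19 and 15 UMIs in TUFT, 23.7 and 28.9 CPM, against 0.0291 and 0.0353 CPM, a call lost with DESeq2's Wald test (0.133). Il17rb, a subunit of the receptor for Il25 itself, had 13.7 and 34.6 CPM in TUFT, against 1.97 and 0.841 CPM. The receptor for interleukins 4 and 13 was represented by Il13ra1, with 348 and 237 CPM in TUFT, against 31.5 and 29.4 CPM, and Il4ra, with 34.9 and 26.9 CPM in TUFT, against 17.0 and 15.8 CPM.

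In single TUFT cells the share with a UMI follows depth, so cells were thinned to 2000 UMIs, which left 130 of 161 and 87 of 143. Lrmp was seen in 85.4% and 71.3% of them, Dclk1 in 75.4% and 55.2%, Alox5ap in 58.5% and 35.6%, and Ltc4s in 52.3% and 33.3%. Trpm5 was seen in 49.2% and 37.9%, Hpgds in 46.2% and 48.3%, Plcg2 in 40.8% and 32.2%, and Pou2f3 in 32.3% and 18.4%. Gnat3 was seen in 5.38% and 2.30% and Il25 in 1.54% and 0%, where 0 of 87 cells has an exact upper bound of 4.15%. Without thinning the shares were higher, such as 94.4% and 85.3% for Lrmp and 25.9% to 44.1% for Pou2f3 over the libraries. For comparison, thinned GOBLET-PRE cells held a Lrmp UMI in 0.532% and 0.388% and a Dclk1 UMI in 0.177% and 0.0776%, at unthinned medians of 6104 and 3369 UMIs. This is 1 class, and others differed. Dclk1 was at 4.07 and 1.14 CPM in ISC and 0 in EC and EEC-PRE, against 0.857 and 0.362 CPM in GOBLET-PRE.

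**Figure D2:**
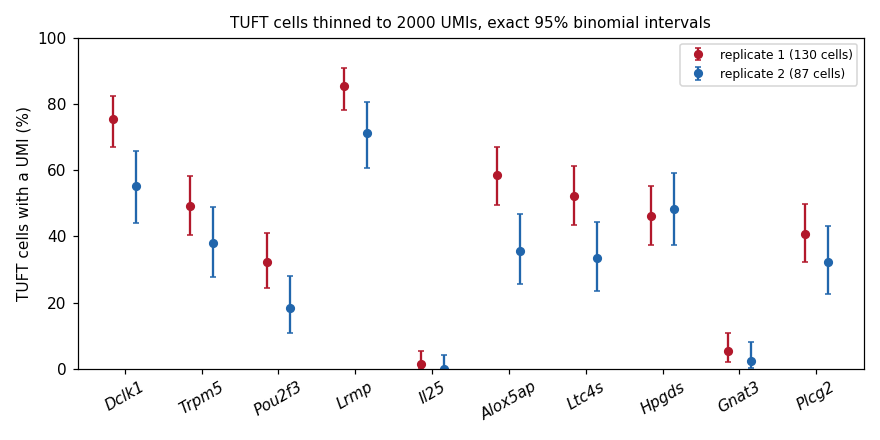
Percent of TUFT cells with at least 1 UMI of each gene after thinning to 2000 UMIs, with exact 95% binomial intervals that cover counting error only. Lrmp and Dclk1 were seen in most cells of both libraries, Hpgds in 46.2% and 48.3%, and Gnat3 and Il25 in few.

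Most TUFT cells carried several of the 10 genes. The median was 6 genes per cell in replicate 1 and 4 in replicate 2, or 5 and 3 after thinning. At least 3 were seen in 148 of 161 cells and in 113 of 143, and none was seen in 0 and 2 cells. The 13 and 30 TUFT cells with 0 to 2 of the genes had a median of 4 and 3 of 13 other tuft markers, against 7 and 6 in the TUFT cells with 3 or more. The listed goblet markers together, unscaled, were at 42828 and 13335 CPM in these cells, against 8476 and 13158 CPM in the TUFT cells with 3 or more. The gap was thus in replicate 1 only, and whether those cells hold RNA of goblet cells was not tested. Outside TUFT, 94.3% and 95.3% of cells had none of the 10 genes, and 9 of 5144 and 15 of 6114 had 3 or more. Those 9 and 15 cells had medians of 8366 and 5037 UMIs, against 5768 and 3520 in the rest. Not all were deep. In replicate 1 the 3 of SEC-PRO had a median of 4003 UMIs, against 5413 in that class. The 1 of GP had 2056, against 4664. In all other class sums that held such cells, their median was above that of the class. Whether the 9 and 15 cells hold RNA of 2 cells was not tested.

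Within a TUFT cell the genes were found together slightly more often than the product of their shares gives. Over the gene pairs with at least 5 cells expected, the thinned number of cells with both was a median of 1.10 times the product in replicate 1 (30 pairs, 0.974 to 1.44) and 1.22 times in replicate 2 (28 pairs, 1.02 to 1.65). The pairs share cells and genes, and this is a description. The leukotriene pair Alox5ap and Ltc4s was seen together in 46 of 130 thinned cells where the product gave 39.8, and in 15 of 87 where it gave 10.3. Unthinned, Alox5, Alox5ap and Ltc4s were all seen in 24 of 161 and 15 of 143 TUFT cells, and Ptgs1 with Hpgds in 43 and 24. Both branches, as Alox5ap, Ltc4s and Hpgds, were seen in 1 cell in 54 of 161 and 22 of 143. Trpm5 was seen with Gng13 in 80 and 54 TUFT cells, with Plcb2 in 62 and 25, and with Gnat3 in 15 and 7.

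Without scaling, all 10 genes had a higher CPM in TUFT of replicate 1 than of replicate 2. The ratio was 1.60 for Alox5ap, 1.53 for Pou2f3, 1.47 for Lrmp, 1.36 for Dclk1 and 1.16 for Trpm5, and it was 1.01 for Hpgds. With 1 TUFT sum per library there is no test of this difference. Depth moved with it, since TUFT cells of replicate 1 had the larger median UMI count, and its part was not tested.

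Among the 11 classes other than TUFT the 10 genes were low. Each class was set against the mean of the fitted log2 levels of the other 10, with TUFT left out, for the 9 genes tested. The CPM means printed beside the adjusted p are not what was tested. For Alox5ap in ISC the fitted log2 difference was 2.69, against 1.33 and 1.06 within the libraries with a prior count of 2. In the main edgeR fit 6 of 99 tests were called, all higher, and 10 were called with unscaled library sizes. The background shares given here are those of the main fit, and none was worked out for the other settings. In ISC these were Alox5ap, with 10 and 16 UMIs and 2.55 and 1.66 CPM, against a mean of 0.759 and 0.581 CPM in the other classes (edgeR adjusted p = 0.00285), Plcg2, with 5.09 and 3.94 CPM, against 2.48 and 2.48 CPM (0.00488), and Trpm5, with 1.78 and 1.35 CPM, against 0.917 and 0.540 CPM (0.0368). These are 3 of 9 genes where 28.4% of all genes were called higher in ISC, so the share is near the background. In NON-EC Hpgds, with 7 and 3 UMIs, and Plcg2, with 4 and 3, were called (edgeR adjusted p = 0.0281 and 0.0313, background 22.9%). In PANETH Alox5ap was called, with 3 and 4 UMIs (edgeR adjusted p = 0.0154, background 17.4%). PANETH had TMM factors of 0.229 and 0.256, and this call was not made with unscaled library sizes. Unscaled, Alox5ap had 0.627 and 0.776 CPM in PANETH, against 0.811 and 0.977 CPM in all classes other than TUFT pooled. In the other 8 classes 0 of 9 were called higher, where the background was 16.5% in EC, 13% in EEC-PRE, 15.1% in ENTERO-PRO, 11.6% in GOBLET, 15.3% in GOBLET-PRE, 9.71% in GP, 12.8% in PANETH-PRE and 18.7% in SEC-PRO. None of the 6 passed after thinning, where their adjusted p lay between 0.0670 and 1, and Alox5ap in PANETH then had the opposite sign. The 1 call made after thinning was another, Dclk1 in NON-EC (edgeR adjusted p = 0.0126), where the gene had 0 and 4 UMIs before thinning. Without the 9 and 15 cells outside TUFT that had 3 or more of the genes, 3 of the 6 passed, Alox5ap and Plcg2 in ISC and Plcg2 in NON-EC. Lower calls came only with DESeq2's Wald test, for Plcg2, Pou2f3 and Ltc4s in GOBLET-PRE (DESeq2 adjusted p = 0.0225, 0.0255 and 0.0258).

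Hpgds and Plcg2 made up more of the 10 genes' UMIs outside TUFT than in it. Hpgds gave 6.41% and 8.64% of them in TUFT, but 16.1% (12.6 to 20.2, exact 95% interval) and 28.2% (23.7 to 32.9) in the other 11 classes. Plcg2 gave 5.97% and 6.84% in TUFT, against 16.7% and 16.8% in the others. Dclk1 went the other way, with 27.0% and 27.1% in TUFT, against 11.6% and 7.75%. Free RNA, read from barcodes with 1 to 50 UMIs, gave 26.5% and 23.6% for Dclk1, 8.16% and 5.69% for Hpgds and 7.48% and 9.76% for Plcg2. Its Trpm5 share was 7.48% and 15.4% (9.56 to 23.1 in replicate 2), against 7.06% and 8.28% in TUFT. In both libraries the Hpgds share of the other classes lay above that of TUFT, also without the cells with 3 or more of the genes, where Hpgds gave 16.9% and 30.7%. Free RNA held the 10 genes at 122 and 105 CPM together.

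**Figure D3:**
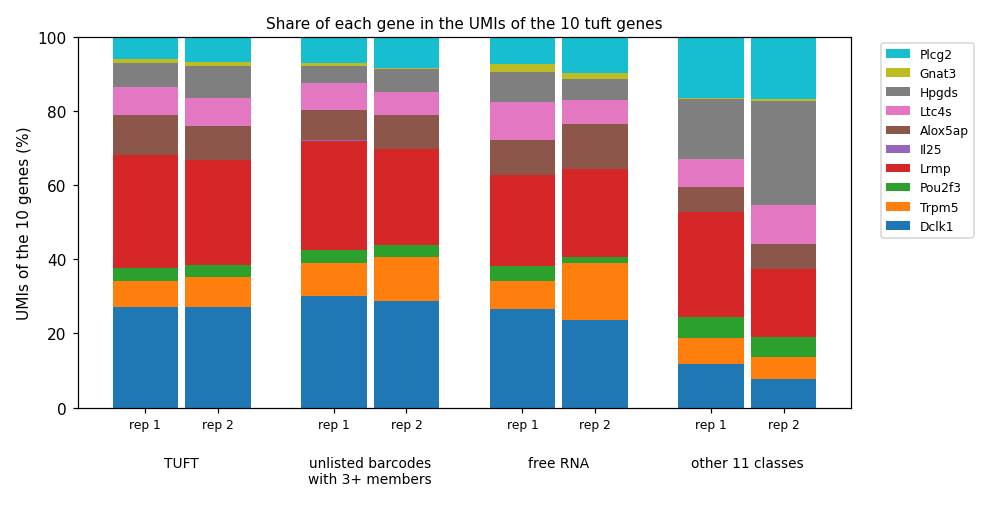
Share of each gene in the summed UMIs of the 10 genes, in percent, for TUFT cells, unlisted barcodes with 3 or more of the genes, free RNA and the other 11 classes, with 1 bar per library. The Hpgds and Plcg2 segments are widest in the other 11 classes, where Hpgds reaches 16.1% and 28.2%.

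The Hpgds UMIs outside TUFT were spread over many cells and differed by library. In ISC Hpgds had 5 UMIs in replicate 1, in 5 of 553 cells, and 47 in replicate 2, in 42 of 1739 cells with at most 2 UMIs in a cell. Unscaled, this was 1.58 and 6.25 CPM. PANETH-PRE had 1 and 11 UMIs and GP 2 and 12, while GOBLET-PRE had 28 and 11, or 2.03 and 2.19 CPM, and SEC-PRO had 12 and 18, or 2.98 and 5.81 CPM. The level was higher in replicate 2 in ISC, GP, PANETH-PRE and SEC-PRO, close between libraries in GOBLET-PRE, and lower in replicate 2 in NON-EC, with 7 and 3 UMIs, or 18.83 and 9.13 CPM. With 1 sum per class and library this was not tested. If free RNA had the same make-up in every droplet, the gene least abundant in a class relative to free RNA would set a bound on it. With Dcn aside, that bound was 13.7 of the 80 UMIs of the 10 genes in ISC of replicate 1 and 37.3 of 177 in replicate 2. In GOBLET-PRE it was 74.5 of 134 and 14.3 of 32. For Hpgds alone the bound was lower, at 1.12 of 5 and 2.12 of 47 UMIs in ISC. In GOBLET-PRE it was 6.08 of 28 and 0.814 of 11 for Hpgds. Dcn, a stromal gene with 592 and 403 free UMIs but 1 and 3 in listed cells, brings the bound to 0% or near it, so it was left out here after its values were seen. The part of free RNA in the UMIs outside TUFT was not tested.

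Genes alike in pattern were ranked by the Pearson correlation of their log2 CPM with the mean profile of the 9 genes over the 24 sums, among 8308 genes, as a description in which the TUFT sums weigh most. Among the 10 highest were Sh2d6 (0.95), Rgs13 (0.94), Pygl (0.94), Bpgm (0.93), Fyb (0.93), Avil (0.91), Gng13 (0.90), Lima1 (0.89) and Itpr2 (0.86). Pygl, a glycogen phosphorylase, had 303 and 248 CPM in TUFT, against 1.02 and 0.748 CPM. Bpgm, the enzyme that makes 2,3-bisphosphoglycerate in red cells, had 182 and 183 CPM in TUFT, against 27.3 and 32.7 CPM. Each of the 9 genes themselves was set against the mean profile of the rest of the 9. In this measure Hpgds correlated least (0.83) and Alox5ap most (0.96). Over the 22 sums without TUFT the correlations were 0.09 to 0.54.

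Many barcodes with the 10 genes were not in the authors' table of cells. Of the unlisted barcodes with at least 500 UMIs, 239 of 4125 in replicate 1 and 98 of 2667 in replicate 2 had 3 or more of the genes, beside 148 and 113 TUFT cells with as many. Of these, 208 and 81 also had at least 3 of 13 other tuft markers, 87.0% and 82.7%, against 1.65% and 2.02% of the unlisted barcodes with 0 to 2 of the genes. All listed cells lay between 600 and 3000 genes and below 7% in mitochondrial UMIs, and 141 and 41 of the barcodes missed only the mitochondrial limit, 15 and 34 only the lower gene limit, and 37 and 7 only the upper one. Among barcodes within the gene limits, at least 7% mitochondrial UMIs were found in 47.2% and 24.3% of those with 3 or more of the genes, against 24.4% and 14.3% of all barcodes. The unlisted barcodes were shallower, with medians of 1682 and 1014.5 UMIs, against 3467 and 2317 in TUFT cells with 3 or more of the genes. Of their UMIs of the 10 genes, Dclk1 gave 30.1% and 28.8% and Hpgds 4.68% and 6.20%. Alox5ap gave 8.02% and 9.06%, against 10.6% and 9.07% in TUFT, and Trpm5 8.98% and 11.9%, against 7.06% and 8.28%. The barcodes were picked by these same genes, so their make-up is no support for likeness to TUFT. Il25 had 7 and 1 UMIs in the unlisted barcodes with 3 or more of the genes, against 4 and 2 in TUFT cells.

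**Figure D4:**
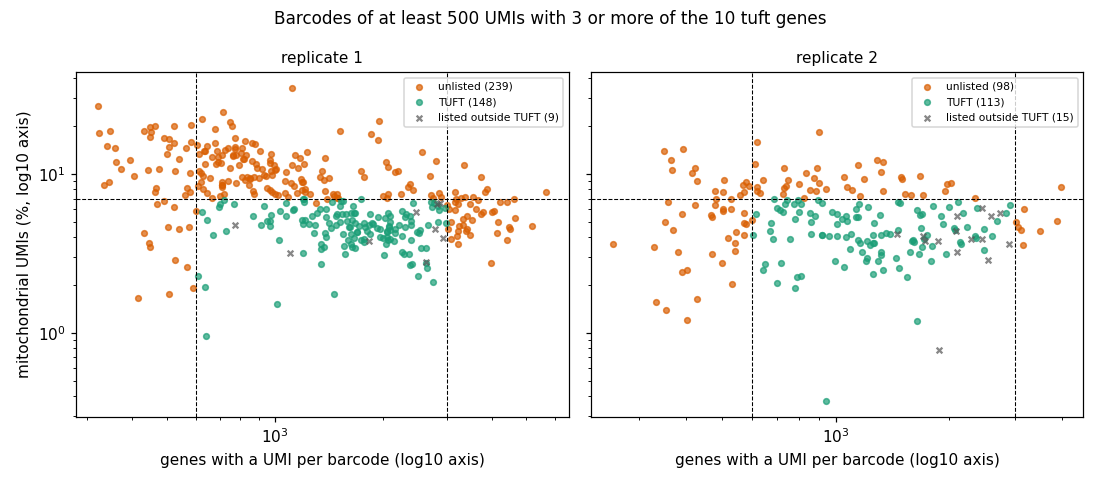
Genes per barcode and percent mitochondrial UMIs, both on log10 axes, of barcodes with at least 500 UMIs and 3 or more of the 10 genes, by library. Dashed lines mark the limits of the listed cells, and most of the 239 and 98 unlisted barcodes lie above 7% mitochondrial UMIs or outside 600 to 3000 genes.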

How the data were processed

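Crypts of the ileum were released with EDTA and dissociated, and live Tom+ cells were sorted and made into 10x Genomics 3′ v3.1 libraries, per the labels' protocols. Reads were counted with Cell Ranger 3.0.2 and STAR on mm10, per the submitters' processing notes. The authors deposited raw UMI counts for every barcode, with no cell filter. In the authors' deposited table of cells, the percent of mitochondrial UMIs per listed cell had been computed by the authors before deposit. The class names come from the same table, and the sources used here do not say how classes were assigned or doublets treated. The mitochondrial percentages given in the text were computed from the raw UMI counts, for unlisted barcodes too, which that table does not hold. No doublet caller was run.

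The 10 genes, the gene lists and the tests were chosen with earlier results of these data known. Counts were summed per class and library. The fit was edgeR 4.0.16 in R 4.3.3, a quasi-likelihood model with class and library terms on 24 sums (11 residual degrees of freedom, filterByExpr, TMM factors over genes averaging 6 or more in log2 CPM, threshold 0.05). The library term serves as the block, since all classes of a library were prepared together. Fitted log2 differences against classes at 0 depend on the model, so text values are CPM and UMIs. DESeq2 1.42.0, other scalings, no filter, no block, thinning and leaving out each library were tried. The genes named were the 10, the 10 most like them, the 3 of each list with the largest difference among those called, and those of the 10 called among other classes; others in the text were chosen after their values were seen, and 1 gene that the rule names is not reported here. Intervals are exact binomial (95%) and, like the floor of 3 counts, cover counting error only. Coordinates are GENCODE M21 on mm10. The strand setting of the counting was not stated in them, and Dclk1, Trpm5, Lrmp, Alox5ap and Ltc4s overlap genes on the opposite strand. The edgeR script was tested on simulated data. Python 3.11.15 was used for the rest.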

Additional observations from a re-analysis of the deposited data

Results flagged for a closer look

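Barcodes that carried the tuft genes were found outside the authors' table of cells, in data that the comparisons between classes do not use. Unlisted barcodes of at least 500 UMIs with 3 or more of the 10 genes numbered 239 in replicate 1 and 98 in replicate 2. That is 5.79% and 3.67% of the unlisted barcodes of that depth, against 157 of 5305 (2.96%) and 128 of 6257 (2.05%) of all listed cells, TUFT included. Of the listed cells outside TUFT, 0.175% and 0.245% had as many. A median of 6 and 4 of 13 other tuft markers was seen in them, against 0 and 0 in the unlisted barcodes with fewer of the genes.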

How the results depend on the processing

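The TUFT cells hold few UMIs. Il25 rests on 4 and 2 UMIs, Gnat3 on 31 and 13, and the calls among the other classes on 3 to 38 per sum, and sums of 42 to 118 cells in EC, EEC-PRE, GOBLET and ENTERO-PRO of replicate 1 hold 1 to 12 UMIs of the 10 genes together. Most of the 10 genes are seen in only part of the TUFT cells at this depth, and a cell without a UMI is not a cell without the transcript.

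Thinning to 2000 UMIs, which tested fewer genes, gave 832 genes higher and 537 lower in TUFT, 0 higher in the doublecortin and Trpm list and 1 call of the 10 genes among the other classes. Unscaled library sizes, added after the data were seen, gave 3790 and 354 genes and 10 such calls, and leaving out the cells outside TUFT with 3 or more of the genes gave 3. DESeq2's Wald test called 5 transcription factors higher in TUFT and, among the other classes, Plcg2, Pou2f3 and Ltc4s lower in GOBLET-PRE. Without the replicate block 1124 genes were higher and 696 lower in TUFT, and 4 calls of the 10 genes were made among the other classes. For the contrasts among the other classes, the share of all genes called was worked out in the main fit only. The numbers of calls under the other settings are thus no result about the 10 genes. The causes were not tested beyond the smaller samples that thinning leaves. Alox5ap in PANETH was reversed after thinning, at -1.12 on the log2 scale. The TUFT log2 differences of the 9 genes were positive in every alternative, leaving out each library included. Since the genes were picked as tuft genes, this is a description and no support. The lowest was 4.90 for Gnat3, within replicate 2 alone with a prior count of 2. The highest was 10.51 for Dclk1, from a fit, so the 2 ends are unlike measures.

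Unscaled CPM in TUFT averaged 1130 for Dclk1, 316 for Trpm5, 139 for Pou2f3, 1231 for Lrmp, 5.83 for Il25, 324 for Ltc4s, 307 for Hpgds, 42.0 for Gnat3 and 265 for Plcg2, above the TMM-scaled means. TUFT cells with 3 or more of the genes were 63.7% and 46.4% at 1000 UMIs per cell and 59.8% at 2000 in replicate 2. Unlisted barcodes of replicate 2 with the genes numbered 50 at 1000 UMIs or more, 150 with 2 or more genes and 55 with 4 or more. Free RNA held the 10 genes at 86.0 and 77.0 CPM with barcodes of up to 100 UMIs and at 123 CPM in replicate 2 with up to 20. Without Dcn the largest free RNA share was 4.45% and 2.70% in GOBLET-PRE, 3.56% and 4.70% in ISC and 2.94% and 5.29% in SEC-PRO.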
